A study of Mus musculus with 9 samples.

Results

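The genes described here are 51 antioxidant genes of the mouse, out of 18193 genes measured: the cytosolic and mitochondrial glutathione transferases, the microsomal glutathione transferases, the glutathione peroxidases, peroxiredoxins, thioredoxins, thioredoxin reductases and superoxide dismutases, together with Nqo1, Hmox1, Gclc, Gclm, Gsr, Gss, Srxn1, Nfe2l2 and Keap1. They were chosen by a rule on gene symbols that uses no measured value, though earlier results of these data were known when it was set. Each gene was represented by the probe set with the highest mean over the 9 arrays among those annotated to that gene only. The symbols of 53 genes matched, and Prdx1 and Gsta1 have no value here because they are annotated only on probe sets shared with another gene. Of the 51 genes, 12 were dim, with a mean under 6 on the log2 scale in every group: Gsta2, Gsta3, Gstm3, Gstm4, Gstm6, Gstp3, Gstt2, Gstt4, Gpx2, Gpx3, Gpx5 and Gpx6. They were tested with the others.

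Total RNA was measured in 3T3-L1, an established line of mouse fibroblasts able to turn into fat cells, on 9 single-colour oligonucleotide arrays in 3 groups of 3. The groups were undifferentiated preadipocytes, which received no siRNA, adipocytes given a control oligonucleotide with no target (control siRNA), and adipocytes given siRNA directed at PPAR gamma. PPAR gamma, encoded by Pparg, is the nuclear receptor required to form fat cells. To make adipocytes, cells 2 days past confluence were kept for 2 days in dexamethasone at 1 µM, insulin at 10 µg/ml and the phosphodiesterase inhibitor IBMX at 0.5 mM, and for 2 more days in insulin alone. They were electroporated with 2 or 3 nmol of siRNA 14 days after induction, having been detached with trypsin and collagenase, and were then reseeded. The time from electroporation to harvest is not known here. All groups are 1 cell line, and the series calls the replicates of a group technical, so the p-values speak only of the variation among these arrays.

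Levels are log2 values, and a difference of 1 is a 2-fold change. Differences are between group means ± SE from 1 limma fit of the 9 arrays, adjusted by Benjamini-Hochberg over 45037 probe sets, and a gene is said to rise or fall where its adjusted p was under 0.05. Control siRNA adipocytes minus preadipocytes is called differentiation here and PPAR gamma siRNA minus control siRNA is called knockdown. These comparisons share the control siRNA arrays, and the third, PPAR gamma siRNA minus preadipocytes, shares arrays with both. Transfection was given to adipocytes alone and cannot be told apart from differentiation in comparisons with preadipocytes. Pparg read 8.35, 8.20 and 8.12 in preadipocytes, 12.89, 12.82 and 12.65 with control siRNA and 9.54, 9.58 and 9.64 with PPAR gamma siRNA, so no arrays overlapped between the groups and the target was 9.20-fold lower with its siRNA.

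Array medians lay between 4.82 and 4.89. The 3' minus 5' difference of the Actb control probe sets, a sign of RNA integrity, was 0.23 to 0.36 in preadipocytes, 0.91 to 1.30 with control siRNA and 0.54 to 1.25 with PPAR gamma siRNA, and the spike-in BioB-5 read 7.08 to 7.60, 8.44 to 8.73 and 7.95 to 8.49. The mean log2 level of the 4 measured adipocyte markers, Adipoq, Fabp4, Cidec and Retn, was 4.48 to 4.5 in preadipocytes, 13.59 to 13.62 with control siRNA and 10.14 to 10.29 with PPAR gamma siRNA. That of 5 fibroblast markers, Dlk1, Pdgfra, Pdgfrb, Thy1 and Col1a1, was 12.02 to 12.17, 8.68 to 9.07 and 10.39 to 11.00. Markers of macrophages (6 genes) averaged 4.23 to 4.27, 4.59 to 4.62 and 4.66 to 4.99, and those of endothelium (6 genes) 3.68 to 3.83, 3.86 to 3.97 and 3.88 to 4.11. Markers of skeletal muscle (6 genes) averaged 4.34 to 4.43, 4.93 to 5.05 and 4.76 to 4.93, with Des, the muscle intermediate filament gene, at 5.75, 8.16 and 7.53. Of these 6 muscle genes, 3 rose and 1, Acta1, fell in differentiation (median 0.27), where 27.1% and 24.7% of all genes did. The part of these differences in the results below was not tested, except that counts without the arrays of highest Actb difference are given. In bulk RNA, fewer cells of a type and less RNA per cell cannot be told apart.

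Glutathione is a small thiol made by glutamate-cysteine ligase (catalytic subunit Gclc, modifier Gclm) and glutathione synthetase (Gss) and kept reduced by glutathione reductase (Gsr). Glutathione transferases join it to reactive compounds, glutathione peroxidases and peroxiredoxins reduce peroxides, thioredoxins and their reductases recharge the peroxiredoxins, and superoxide dismutases turn superoxide into hydrogen peroxide. Many of these genes are known targets of the transcription factor NRF2 (Nfe2l2), which KEAP1 marks for destruction and which binds the antioxidant response element. White fat cells, which 3T3-L1 adipocytes model, are known chiefly for storing lipid.

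The core of the antioxidant response element, spelled TGACNNNGC here and searched on both strands, was looked for in the RefSeq promoter windows (GRCm38.p6, 250 bases before to 50 after a gene's start) of the 45 genes that matched that table by symbol. Gclc, Gsr, Gsta4, Gstt2, Hmox1 and Sod3 had no entry. It was present in 9 of 59 windows, 15.3%, against 12.4% of all 32851 promoter windows. The genes were Gclm, Gsta3, Gstm5, Gstm7, Mgst1, Nfe2l2, Sod1, Srxn1 and Txnrd1. Windows of 3 genes are shown because they differ in behaviour: Gclm, which rose in differentiation and fell with knockdown, and the chromosomal neighbours Gstm5 and Gstm7, which moved in opposite directions in differentiation and with knockdown, though both stood above preadipocytes with PPAR gamma siRNA. Each is the 250 bases before an annotated start of the gene, on the gene's own strand, with the match in capitals. They lie at chr3:122245307-122245556 on the plus strand, chr3:107895604-107895853 on the plus strand and chr3:107931615-107931864 on the minus strand.
Gclm: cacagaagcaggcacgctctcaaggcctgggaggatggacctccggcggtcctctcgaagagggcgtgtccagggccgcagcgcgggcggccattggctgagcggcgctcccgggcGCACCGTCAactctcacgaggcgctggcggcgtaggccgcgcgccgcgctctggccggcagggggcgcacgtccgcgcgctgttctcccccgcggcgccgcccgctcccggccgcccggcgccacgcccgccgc
Gstm5: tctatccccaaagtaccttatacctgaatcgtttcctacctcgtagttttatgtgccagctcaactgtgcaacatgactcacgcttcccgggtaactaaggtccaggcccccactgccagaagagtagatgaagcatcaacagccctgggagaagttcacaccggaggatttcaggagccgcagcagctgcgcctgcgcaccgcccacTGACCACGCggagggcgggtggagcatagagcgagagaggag
Gstm7: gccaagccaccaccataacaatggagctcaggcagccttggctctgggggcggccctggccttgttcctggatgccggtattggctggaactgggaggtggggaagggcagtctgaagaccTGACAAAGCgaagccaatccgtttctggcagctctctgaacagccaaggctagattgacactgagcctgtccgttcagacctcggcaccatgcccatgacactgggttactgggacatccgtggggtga
The match of Gclm reads on the opposite strand and begins at position -134 from the start, that of Gstm5 begins at -42 and that of Gstm7 at -129. Gstm7 has another annotated start without a match, and the 250 bases before that one lie at chr3:107931818-107932067. The match shown for Gstm7 is downstream of that other start, so it precedes only the start used here. A perfect DR1 repeat, the element of PPAR and RXR dimers, and a perfect palindromic NRF1 element, searched in the same way, had 0 matches in the 59 windows, against 0.0396% and 0.971% of all windows, which says only that these letters are not there.

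Antioxidant genes rose in differentiation more often than they fell, and fell with knockdown more often than they rose. In differentiation 35 of the 51 genes passed the test, where 51.8% of all genes did: 27 rose, or 52.9%, where 27.1% of all genes rose, and 8 fell, or 15.7%, where 24.7% of all genes fell. Their median difference was 0.31, against 0.09 over all genes. The largest rises were those of Gstz1 and Mgst2, 15.1-fold and 14.8-fold, and the largest falls those of Gpx7 and Nqo1, 4.02-fold and 3.99-fold. With knockdown 30 genes passed, where 35.9% of all genes did: 21 fell, or 41.2%, against 16.1% of all genes, and 9 rose, or 17.6%, against 19.9%. The median knockdown difference was -0.17, against -0.0088 over all genes, and the extremes were the fall of Mgst2, 5.49-fold, and the rise of Gstt1, 6.62-fold. Against preadipocytes, PPAR gamma siRNA adipocytes had 33 genes past the test, where 36.5% of all genes were, with 25 higher, or 49%, with 19.6% of all genes higher, and 8 lower, or 15.7%, with 16.9% of all genes lower. Changes of at least 2-fold were called for 15 genes upwards and 5 downwards in differentiation, with 8.83% and 10.6% of all genes, for 3 upwards and 6 downwards with knockdown, with 5.68% and 4.61%, and for 6 upwards and 3 downwards against preadipocytes, with 4.29% and 5.01%. The arrays of the groups compared did not overlap for 40 of the 51 genes in differentiation, 35 with knockdown and 37 against preadipocytes, where the shares of all genes were 61.5%, 44.4% and 49.8%. All genes include many dim ones. With dim probe sets left out, 21 of 39 antioxidant genes rose and 9 fell in differentiation, where 3544 and 4165 of 10210 genes did. The share past the test in differentiation was then close to that of all genes. With knockdown 8 of the 39 rose and 20 fell, where 3623 and 2794 of the 10210 did. Without the arrays of highest Actb difference, control siRNA 1 and PPAR gamma siRNA 3, differentiation had 26 of the 51 genes higher and 8 lower. Of all 18193 genes, 4629 were higher and 4487 lower there. Knockdown then had 7 of the 51 higher and 17 lower, and 3153 and 2602 of all genes.

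**Figure D1:**
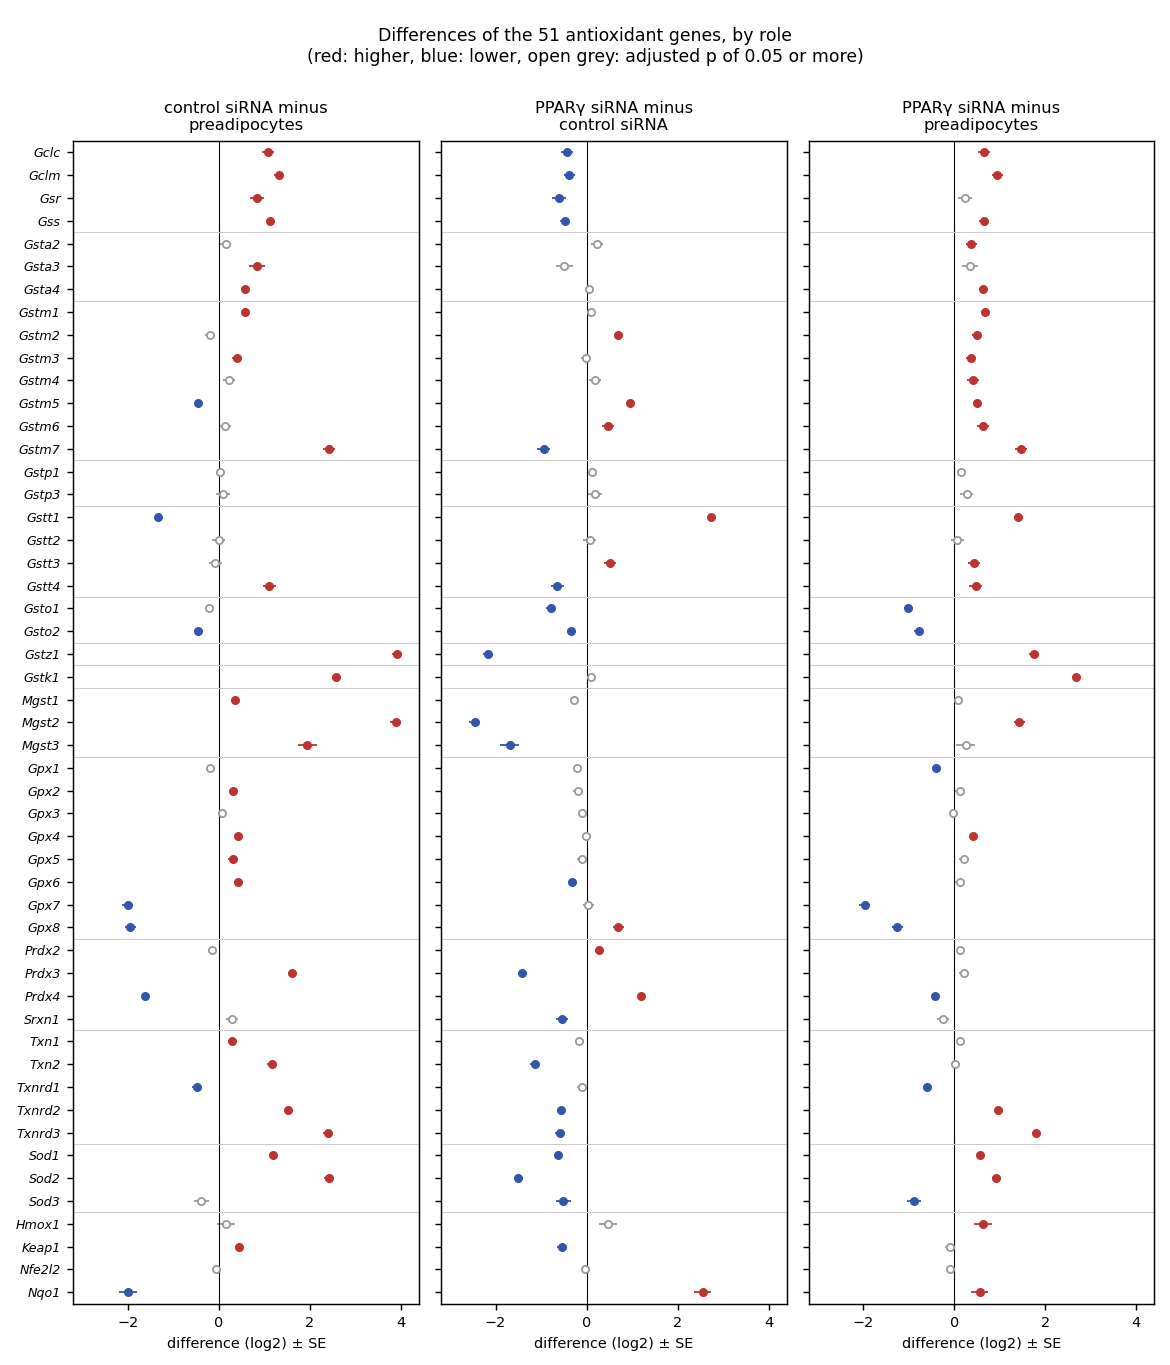
Log2 difference ± SE of each of the 51 genes in the 3 comparisons, with genes in rows ordered by role and grey lines between roles. Filled red points rose, filled blue points fell and open grey points had an adjusted p of 0.05 or more. All 4 glutathione synthesis and recycling genes at the top are to the right in differentiation and to the left with knockdown, while Gstt1 and Nqo1 run the other way.

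Glutathione synthesis and recycling genes moved together at the probe sets used, with weaker calls for knockdown. All 4 genes rose in differentiation, by 0.84 to 1.32, where 27.1% of all genes rose. All 4 fell with knockdown, by amounts between -0.37 and -0.60, where 16.1% of all genes fell. Gclc read 7.21, 7.26 and 7.31 in preadipocytes, 8.34, 8.26 and 8.41 with control siRNA and 8.21, 7.63 and 7.89 with PPAR gamma siRNA. Gclm read 9.06, 8.83 and 8.66, then 10.28, 10.25 and 9.99, then 9.85, 9.75 and 9.79 in the same order of groups. For both ligase subunits every array of PPAR gamma siRNA lay between the other groups. Gss read 7.30, 7.12 and 7.01 in preadipocytes, 8.37, 8.20 and 8.24 with control siRNA and 7.77, 7.85 and 7.77 with PPAR gamma siRNA. Gsr read 8.24, 7.97 and 7.58 in preadipocytes, 8.94, 8.80 and 8.56 with control siRNA and 8.15, 8.21 and 8.15 with PPAR gamma siRNA, where its arrays overlapped those of preadipocytes. In differentiation Gclm rose 2.50-fold (adjusted p = 1.48e-06), Gss 2.19-fold (adjusted p = 1.12e-06), Gclc 2.11-fold (adjusted p = 2.19e-05) and Gsr 1.79-fold (adjusted p = 0.000698).

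With knockdown Gss changed by -0.48 ± 0.09 (adjusted p = 0.0022), Gsr by -0.60 ± 0.15 (adjusted p = 0.0106), Gclc by -0.43 ± 0.13 (adjusted p = 0.0253) and Gclm by -0.37 ± 0.11 (adjusted p = 0.0293). Gclm remained above preadipocytes by 0.95 ± 0.11 and Gclc and Gss each by 0.65, while Gsr differed from them by 0.24 ± 0.15 (adjusted p = 0.276, 95% interval -0.09 to 0.57). The knockdown calls on the ligase subunits rested on single arrays. That on Gclc ended without either of the control siRNA arrays 1 and 3 or of the PPAR gamma siRNA arrays 2 and 3 (adjusted p up to 0.0953), and that on Gclm without either of the control siRNA arrays 1 and 2 or of the PPAR gamma siRNA arrays 2 and 3 (up to 0.0963). With both arrays of highest Actb difference left out, the knockdown calls on Gclc, Gclm and Gsr ended (adjusted p = 0.109, 0.157 and 0.0872). A dimmer Gclm probe set rose with knockdown by 0.46 ± 0.13 (adjusted p = 0.017), against the fall of the brighter set. The Gclc probe set is of a type that can match more than 1 transcript.

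Among glutathione transferases, the zeta and kappa classes, each of a single gene, rose in differentiation and parted ways under knockdown. Gstz1, which isomerises maleylacetoacetate in tyrosine breakdown, read 7.54, 7.52 and 7.38 in preadipocytes, 11.25, 11.38 and 11.56 with control siRNA and 9.39, 9.15 and 9.13 with PPAR gamma siRNA. The groups were fully apart: Gstz1 rose by 3.92 ± 0.11 (adjusted p = 1.02e-10), fell by 2.17 on the log2 scale with knockdown (adjusted p = 4.42e-08) and stayed 3.36-fold above preadipocytes. Gstk1, a mitochondrial and peroxisomal transferase, read 7.39, 7.45 and 7.44 in preadipocytes, 9.97, 10.06 and 9.97 with control siRNA and 10.21, 10.04 and 10.05 with PPAR gamma siRNA. Its adipocyte arrays overlapped between the siRNAs and lay far above preadipocytes, with a rise of 2.57 ± 0.08 (adjusted p = 3.40e-10) and a knockdown difference of 0.10 ± 0.08 (adjusted p = 0.44, 95% interval -0.08 to 0.28).

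The membrane-bound microsomal transferases all rose in differentiation, where 27.1% of all genes rose, and Mgst2 and Mgst3 fell with knockdown, where 16.1% fell. Mgst2, which can make the leukotriene C4, read 5.92, 6.16 and 6.08 in preadipocytes, 10.08, 9.80 and 9.94 with control siRNA and 7.61, 7.26 and 7.59 with PPAR gamma siRNA. Mgst3 read 9.60, 9.50 and 9.53 in preadipocytes, 10.95, 11.62 and 11.89 with control siRNA and 9.65, 10.09 and 9.65 with PPAR gamma siRNA. Its control siRNA arrays were the most scattered, and the PPAR gamma siRNA arrays lay just above preadipocytes. Mgst2 rose by 3.89 ± 0.12 (adjusted p = 2.20e-10) and changed by -2.46 ± 0.12 with knockdown (adjusted p = 3.60e-08), which left it 2.70-fold above preadipocytes. Mgst3 rose by 1.94 ± 0.20 and changed by -1.69 ± 0.20 with knockdown (adjusted p = 5.03e-05), with 0.25 ± 0.20 left over preadipocytes (adjusted p = 0.401). Mgst1, among the brightest of the 51 probe sets at a mean of 13.42 in preadipocytes, rose by 0.35 ± 0.09 and differed by -0.27 ± 0.09 with knockdown, which missed the threshold (adjusted p = 0.0538) and passed it without control siRNA 1 (lowest adjusted p over all settings 0.00651).

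**Figure D2:**
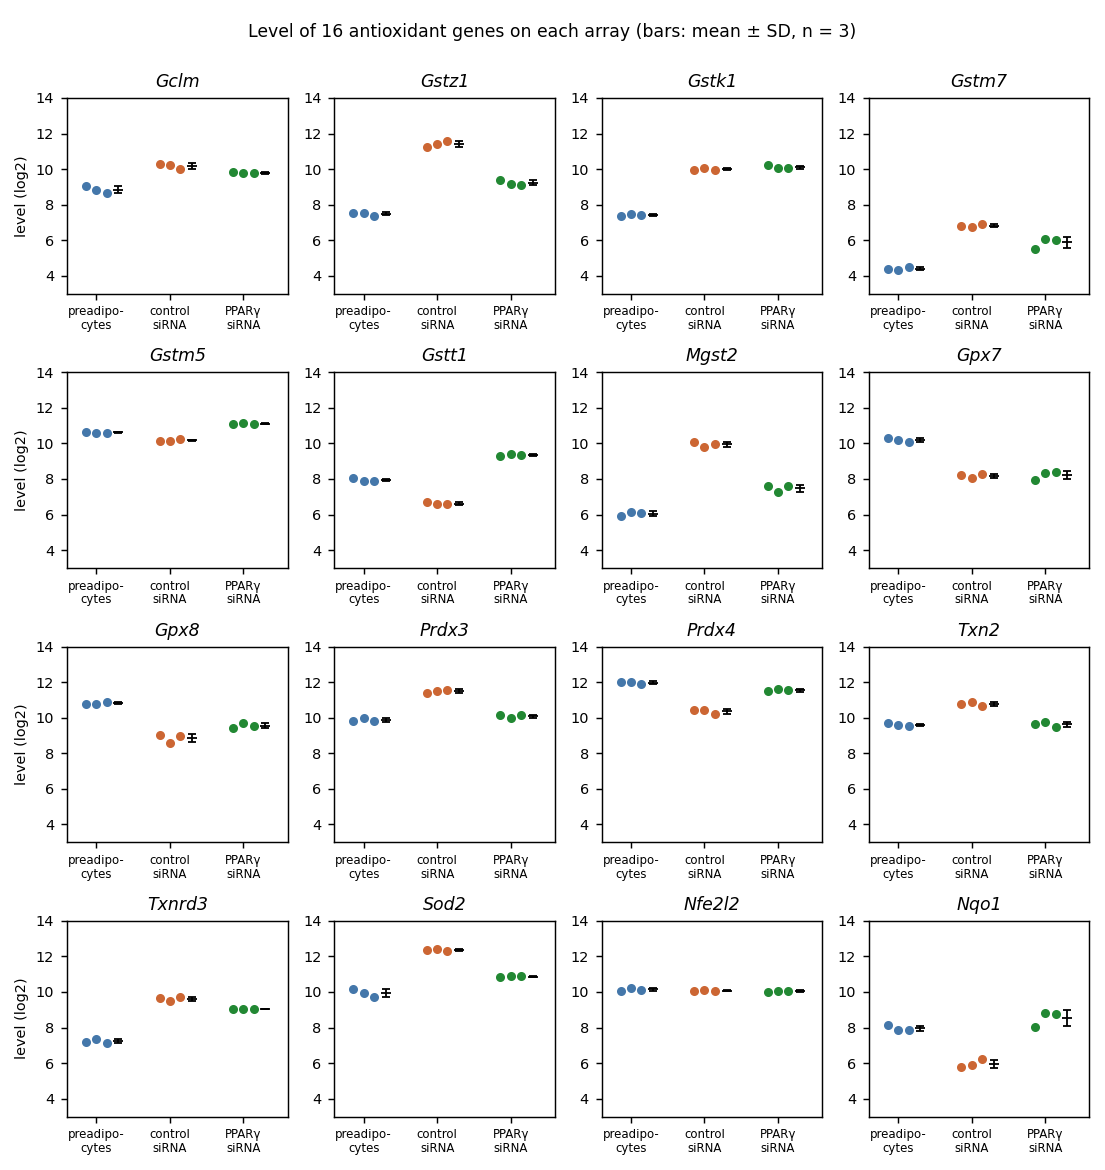
Log2 level of 16 of the genes on each array, with 1 point per array, colour by group and a bar for the mean ± SD (n = 3) beside each group, on the same axis from 3 to 14 in every panel. Gstk1 stays at its control siRNA level under PPAR gamma siRNA, Prdx3 and Txn2 are back near preadipocytes, Gpx7 stays low, and Gstt1 and Gstm5 stand above both other groups.

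The class mu genes, which handle a wide range of electrophiles, sit next to each other: the promoter windows of all 7 lie within 149.0 kb of chromosome 3, in the order Gstm5, Gstm7, Gstm6, Gstm3, Gstm2, Gstm1 and Gstm4. With PPAR gamma siRNA all 7 stood above preadipocytes, by 0.38 to 1.47, where 19.6% of all genes did. In differentiation 3 rose and 1 fell, where 27.1% and 24.7% of all genes did, and with knockdown 3 rose and 1 fell, where 19.9% and 16.1% did. The share called in differentiation, 57.1%, was near the 51.8% of all genes. Gstm7 read 4.37, 4.36 and 4.51 in preadipocytes, 6.82, 6.73 and 6.94 with control siRNA and 5.53, 6.09 and 6.02 with PPAR gamma siRNA, so that it rose by 2.42 ± 0.14 (adjusted p = 3.21e-08) and changed by -0.94 ± 0.14 with knockdown (adjusted p = 0.0002). Its neighbour Gstm5 read 10.65, 10.61 and 10.59, then 10.14, 10.14 and 10.22, then 11.10, 11.16 and 11.08. For Gstm5 the control siRNA arrays were the lowest and the PPAR gamma siRNA arrays the highest, without overlap. Gstm5 changed by -0.45 ± 0.08 in differentiation (adjusted p = 0.000439) and by 0.95 ± 0.08 with knockdown (adjusted p = 2.10e-06).

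Gstm2 rose with knockdown by 0.70 ± 0.09 (adjusted p = 0.000127) after a differentiation difference of -0.20 ± 0.09 that did not pass (adjusted p = 0.102). Gstm1 read 10.68, 10.60 and 10.52 in preadipocytes, 11.19, 11.16 and 11.16 with control siRNA and 11.35, 11.27 and 11.18 with PPAR gamma siRNA. It rose by 0.58 ± 0.08 in differentiation and differed by 0.09 ± 0.08 between the siRNAs, whose arrays overlapped. The dim Gstm6 rose with knockdown by 0.48 ± 0.13 (adjusted p = 0.0168), a call that ended on leaving out control siRNA 1 or 2 or PPAR gamma siRNA 1 (p up to 0.0671). The rise of the dim Gstm3 in differentiation ended without preadipocytes 1 (adjusted p = 0.0527). The calls of Gstm3 and Gstm4 against preadipocytes ended without PPAR gamma siRNA 1 and preadipocytes 1 or 2, and, for Gstm4 alone, also without preadipocytes 3 or PPAR gamma siRNA 3 (adjusted p up to 0.364 and 0.133 over all settings). Class mu sequences are close relatives, and the Gstm1 and Gstm3 probe sets are of types that can match more than 1 transcript, so their values may be shared in part. A second, dimmer Gstm7 probe set read 5.36, 5.37 and 5.43 as group means and passed in no comparison.

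**Figure D3:**
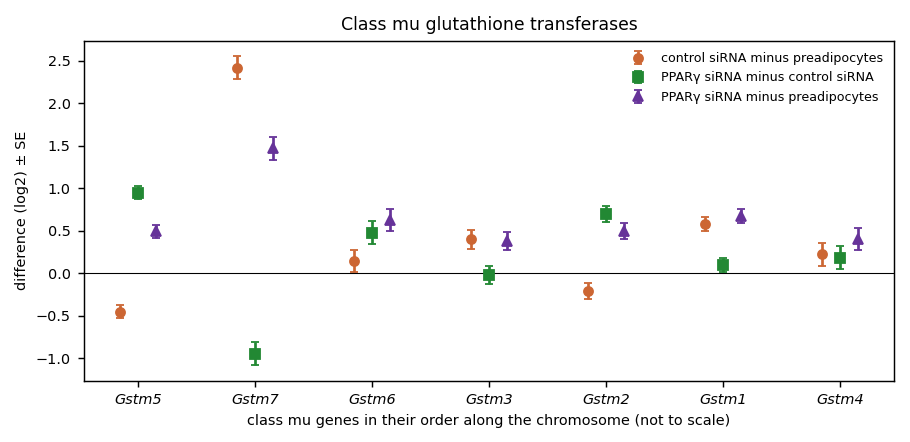
Log2 difference ± SE of the 7 class mu genes in their order along chromosome 3, with circles for differentiation, squares for knockdown and triangles for PPAR gamma siRNA minus preadipocytes. The triangles are all above 0, and Gstm5 and Gstm7 at the left show circles and squares on opposite sides of 0.

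In the theta class, Gstt1 showed the largest knockdown rise of the 51 genes. Gstt1, whose product conjugates small halogenated compounds, read 8.04, 7.89 and 7.91 in preadipocytes, 6.70, 6.57 and 6.59 with control siRNA and 9.28, 9.41 and 9.35 with PPAR gamma siRNA. It was lowest in control siRNA adipocytes and highest after depletion on every array. The differences were -1.33 ± 0.08 in differentiation (adjusted p = 9.67e-08), 2.73 ± 0.08 with knockdown (adjusted p = 1.55e-09) and 1.40 ± 0.08 over preadipocytes (adjusted p = 2.26e-07). Gstt4, a dim neighbour within the same 41.1 kb of chromosome 10, read 3.74, 3.88 and 4.04, then 5.21, 5.0 and 4.78, then 4.22, 4.59 and 4.25, with control siRNA highest and preadipocytes lowest. Gstt4 rose by 1.11 ± 0.14 in differentiation and changed by -0.64 ± 0.14 with knockdown (adjusted p = 0.00338). Gstt3, the other neighbour, rose with knockdown by 0.51 ± 0.14 (adjusted p = 0.0135), and that call ended on leaving out control siRNA 3 or array 2 of PPAR gamma siRNA (p up to 0.0617). Gstt2 stood at 4.34, 4.34 and 4.41 and passed in no comparison.

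Omega class genes, which reduce dehydroascorbate and methylated arsenic, were lowest with PPAR gamma siRNA. Gsto1 read 11.08, 11.02 and 11.03 in preadipocytes, 10.85, 10.80 and 10.83 with control siRNA and 10.22, 9.92 and 9.96 with PPAR gamma siRNA. Gsto2 read 6.87, 7.17 and 6.95, then 6.57, 6.49 and 6.57, then 6.21, 6.35 and 6.08. Both had all PPAR gamma siRNA arrays below all others. Gsto1 changed by -0.79 ± 0.09 with knockdown (adjusted p = 4.16e-05) and stood 2.01-fold below preadipocytes. Its differentiation difference of -0.22 ± 0.09 missed the threshold (adjusted p = 0.0817) and passed it under 6 alternatives, among them leaving out array 1 of PPAR gamma siRNA. A second, slightly dimmer Gsto1 probe set fell in differentiation, with a difference of -0.54 ± 0.10 (adjusted p = 0.000919). Gsto2 changed in differentiation by -0.45 ± 0.10 (adjusted p = 0.00364), a call that ended with renewed quantile normalisation (adjusted p = 0.0907), and by -0.33 ± 0.10 with knockdown (adjusted p = 0.0329), a call that ended without any 1 control siRNA array and on leaving out array 1 or 3 of PPAR gamma siRNA (p up to 0.123).

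Of the alpha and pi classes, only Gsta3 and Gsta4 rose in differentiation, where 27.1% of all genes rose. None passed with knockdown, where 35.9% of all genes did. Gsta4, which detoxifies the lipid aldehyde 4-hydroxynonenal, read 10.12, 10.02 and 10.08 in preadipocytes, 10.76, 10.54 and 10.64 with control siRNA and 10.61, 10.78 and 10.73 with PPAR gamma siRNA. It rose 1.49-fold in differentiation (adjusted p = 0.000199) and its adipocyte arrays overlapped between the siRNAs (difference 0.06 ± 0.09, 95% interval -0.14 to 0.25). The dim Gsta3 read 3.49, 3.64 and 3.44, then 4.60, 3.82 and 4.67, then 3.95, 3.91 and 3.76, with control siRNA 2 apart from the other control arrays. Gsta3 rose in differentiation by 0.84 ± 0.18 and differed by -0.49 ± 0.18 with knockdown (adjusted p = 0.0734), a difference that passed without control siRNA 2. Gsta2 stood above preadipocytes with PPAR gamma siRNA by 0.38 ± 0.13 (adjusted p = 0.0415), a call lost on leaving out preadipocytes 1 or 3, control siRNA 2, or array 1 or 3 of PPAR gamma siRNA (up to 0.161). Gstp1, a very bright probe set at 13.29, 13.32 and 13.43, and the dim Gstp3 passed in no comparison, and the Gstp1 differentiation interval was -0.14 to 0.19.

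Among glutathione peroxidases, the endoplasmic reticulum members Gpx7 and Gpx8 fell, and the rest changed by less than 1.5-fold at the probe sets used. Gpx7, which feeds oxidising power into protein folding, read 10.30, 10.20 and 10.06 in preadipocytes, 8.22, 8.06 and 8.26 with control siRNA and 7.94, 8.31 and 8.39 with PPAR gamma siRNA. Its adipocyte arrays overlapped and lay below preadipocytes, with -2.01 ± 0.12 in differentiation (adjusted p = 6.93e-08) and 0.04 ± 0.12 with knockdown (adjusted p = 0.882, 95% interval -0.23 to 0.31). Gpx8 read 10.79, 10.78 and 10.88, then 9.05, 8.59 and 8.96, then 9.41, 9.71 and 9.56, so it fell 3.86-fold and rose 1.62-fold with knockdown (adjusted p = 0.000973), still 2.39-fold below preadipocytes. Gpx4, which reduces lipid hydroperoxides in membranes, rose by 0.42 ± 0.08 (adjusted p = 0.000759) and differed by -0.0031 ± 0.08 with knockdown (95% interval -0.17 to 0.17). A second, slightly dimmer Gpx4 probe set rose more in differentiation, by 0.72 ± 0.08 (adjusted p = 1.34e-05). That set stood 0.68 ± 0.08 over preadipocytes with PPAR gamma siRNA (adjusted p = 4.64e-05). Gpx1, the cytosolic enzyme, stood at 11.71, 11.51 and 11.31 and was below preadipocytes with PPAR gamma siRNA by -0.40 ± 0.09 (adjusted p = 0.00436), with neither single step past the threshold. Gpx3, the plasma peroxidase, stayed between 4.60 and 4.89 on all 9 arrays and passed in no comparison.

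The dim Gpx2, Gpx5 and Gpx6 rose in differentiation by 0.32, 0.31 and 0.43. The call on Gpx2 ended without preadipocytes 1 or 2 or control siRNA 1 (p up to 0.0764), and that on Gpx5 without any 1 preadipocyte or control siRNA array (adjusted p up to 0.149). Gpx6 read 4.20, 4.23 and 4.33 in preadipocytes, 4.49, 4.69 and 4.87 with control siRNA and 4.28, 4.42 and 4.42 with PPAR gamma siRNA. All were near or below the array medians of 4.82 to 4.89, and the array floor was 2.41. Its knockdown call (-0.31 ± 0.10, adjusted p = 0.0464) ended on leaving out any single array except control siRNA 1 (p up to 0.165).

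Peroxiredoxins went in opposite directions. Prdx3, the mitochondrial peroxiredoxin, read 9.84, 10.00 and 9.81 in preadipocytes, 11.41, 11.51 and 11.58 with control siRNA and 10.13, 9.99 and 10.15 with PPAR gamma siRNA. Prdx4, the secretory pathway peroxiredoxin that passes oxidising power to protein disulfide isomerases, read 12.02, 12.01 and 11.89, then 10.45, 10.41 and 10.19, then 11.48, 11.64 and 11.53. For Prdx3 the control siRNA arrays were the highest and the other groups overlapped, and for Prdx4 the control siRNA arrays were the lowest and no groups overlapped. Prdx3 rose by 1.61 ± 0.09 (adjusted p = 3.58e-08) and changed by -1.41 ± 0.09 with knockdown (adjusted p = 3.48e-07), which left 0.21 ± 0.09 over preadipocytes (adjusted p = 0.118). Prdx4 changed by -1.62 ± 0.09 (adjusted p = 4.39e-08), then by 1.2 ± 0.09 with knockdown (adjusted p = 1.60e-06), and stayed 1.34-fold below preadipocytes. Prdx2, the cytosolic enzyme, rose with knockdown by 0.27 ± 0.08 (adjusted p = 0.031), a call that rested on control siRNA 1 and 2 and on arrays 2 and 3 of PPAR gamma siRNA (p up to 0.113 without 1 of them). Srxn1, sulfiredoxin, which restores overoxidised peroxiredoxins, changed by -0.54 ± 0.13 with knockdown (adjusted p = 0.00794) after a differentiation difference of 0.30 ± 0.13 that missed the threshold (adjusted p = 0.0879) and passed it without preadipocytes 1 or control siRNA 3. The knockdown call on Srxn1 ended when probe sets of types x and s were left out (adjusted p = 0.166).

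Of the 5 thioredoxin and reductase genes, 4 rose and 1 fell in differentiation, where 27.1% and 24.7% of all genes did, and 3 fell with knockdown, where 16.1% did. Txn2, mitochondrial thioredoxin, read 9.67, 9.58 and 9.55 in preadipocytes, 10.78, 10.88 and 10.63 with control siRNA and 9.64, 9.76 and 9.48 with PPAR gamma siRNA. Txnrd2, its reductase, read 6.43, 6.48 and 6.62, then 8.08, 8.00 and 8.00, then 7.51, 7.49 and 7.41. At the probe set used, Txn2 overlapped with preadipocytes after knockdown, whereas every Txnrd2 array of PPAR gamma siRNA lay between the other groups. Other Txn2 probe sets, nearly as bright, stood above preadipocytes there by 0.27 (adjusted p = 0.04) and 0.30 (adjusted p = 0.0475). Txn2 rose by 1.16 ± 0.10 (adjusted p = 1.35e-06) and changed by -1.13 ± 0.10 with knockdown (adjusted p = 3.98e-06), with 0.03 ± 0.10 left (95% interval -0.19 to 0.25). Txnrd2 rose by 1.51 ± 0.08 and changed by -0.55 ± 0.08 with knockdown (adjusted p = 0.00031). Txnrd3, the thioredoxin and glutathione reductase known from testis, read 7.17, 7.38 and 7.16, then 9.68, 9.50 and 9.70, then 9.06, 9.02 and 9.03. It rose 5.25-fold (adjusted p = 1.50e-09) and fell 1.51-fold with knockdown (adjusted p = 0.000398), still 3.48-fold above preadipocytes.

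The cytosolic pair differed from these. Txnrd1, the cytosolic reductase, changed by -0.49 ± 0.10 in differentiation (adjusted p = 0.00182) and by -0.10 ± 0.10 with knockdown (adjusted p = 0.532). Txn1, cytosolic thioredoxin, rose by 0.29 ± 0.08 (adjusted p = 0.0128), a call that ended without preadipocytes 3 (adjusted p = 0.0543) and with renewed quantile normalisation (0.0999), and differed by -0.17 ± 0.08 with knockdown (adjusted p = 0.171). At the probe sets used, neither passed 1.5-fold in any group pair except Txnrd1 between PPAR gamma siRNA and preadipocytes, at 1.51-fold lower. A dimmer Txn1 probe set rose more in differentiation, by 0.69 ± 0.09 (adjusted p = 4.65e-05). The dimmer Txnrd1 probe sets passed in no comparison.

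Among superoxide dismutases, mitochondrial Sod2 and cytosolic Sod1 rose in differentiation, where 27.1% of all genes rose. All 3 genes, with the extracellular Sod3, fell with knockdown, where 16.1% of all genes fell. Sod2 read 10.15, 9.95 and 9.73 in preadipocytes, 12.36, 12.44 and 12.30 with control siRNA and 10.83, 10.90 and 10.88 with PPAR gamma siRNA. Sod1 read 11.58, 11.69 and 11.72, then 12.80, 12.84 and 12.89, then 12.30, 12.09 and 12.29. No groups overlapped for either at the probe set used, with PPAR gamma siRNA in between. Other Sod2 probe sets disagreed on the level over preadipocytes after knockdown. They gave 1.33 (adjusted p = 1.52e-06), 0.25 (adjusted p = 0.0941) and -0.08 (adjusted p = 0.704). Sod2 rose by 2.43 ± 0.11 (adjusted p = 4.03e-09) and changed by -1.50 ± 0.11 with knockdown (adjusted p = 7.04e-07), and Sod1 rose by 1.18 ± 0.09 (adjusted p = 3.80e-07) and changed by -0.62 ± 0.09 (adjusted p = 0.000197). The Sod1 probe set is of a type that can match more than 1 transcript, and with the mean of all 5 Sod1 probe sets its level over preadipocytes after knockdown no longer passed (adjusted p = 0.0967). Sod3 stood at 9.77 ± 0.22 in preadipocytes, 9.39 ± 0.12 with control siRNA and 8.88 ± 0.32 with PPAR gamma siRNA (SD, n = 3). It changed by -0.38 ± 0.16 in differentiation (adjusted p = 0.0714, past the threshold without PPAR gamma siRNA 2) and by -0.51 ± 0.16 with knockdown (adjusted p = 0.032), a call that rested on control siRNA 1 and 2 and on arrays 1 and 3 of PPAR gamma siRNA (p up to 0.118 without 1 of them).

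NRF2 itself changed little at its brighter probe set, and its known target Nqo1 changed a great deal. Nfe2l2 read 10.08, 10.23 and 10.14 in preadipocytes, 10.08, 10.11 and 10.05 with control siRNA and 10.00, 10.08 and 10.08 with PPAR gamma siRNA, overlapping throughout. Its differences were -0.06 ± 0.08 in differentiation (95% interval -0.24 to 0.11) and -0.03 ± 0.08 with knockdown (95% interval -0.20 to 0.14). A second, dimmer Nfe2l2 probe set went from 3.70 to 5.84 and 4.75, a rise of 2.14 ± 0.10 in differentiation (adjusted p = 7.05e-09) and a knockdown change of -1.09 ± 0.10, so the probe sets of Nfe2l2 disagree. Keap1 read 8.87, 8.84 and 8.66, then 9.38, 9.20 and 9.13, then 8.62, 8.71 and 8.76, with control siRNA highest. It rose by 0.45 ± 0.10 (adjusted p = 0.00247) and changed by -0.54 ± 0.10 with knockdown (adjusted p = 0.00103), and the differentiation call was lost with the mean of both Keap1 probe sets (adjusted p = 0.0579).

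Nqo1, the quinone reductase, read 8.14, 7.89 and 7.87 in preadipocytes, 5.79, 5.91 and 6.21 with control siRNA and 8.01, 8.82 and 8.74 with PPAR gamma siRNA. Control siRNA adipocytes were far below both other groups, which overlapped through PPAR gamma siRNA 1. Nqo1 changed by -2.0 ± 0.19 in differentiation (adjusted p = 3.69e-06) and by 2.55 ± 0.19 with knockdown (adjusted p = 1.13e-06). Its excess over preadipocytes, 0.56 ± 0.19 (adjusted p = 0.0473), lost its call on leaving out any array except control siRNA 3 and array 1 of PPAR gamma siRNA (p up to 0.174). Hmox1, haem oxygenase, read 9.79, 9.76 and 9.51, then 9.61, 10.03 and 9.90, then 10.82, 9.90 and 10.25, with PPAR gamma siRNA 1 the highest array. Hmox1 differed by 0.16 ± 0.20 in differentiation (adjusted p = 0.552) and 0.48 ± 0.20 with knockdown (adjusted p = 0.103), which passed without PPAR gamma siRNA 2 (adjusted p = 0.0168). The call on Hmox1 over preadipocytes (0.64 ± 0.20, adjusted p = 0.0298) ended without any 1 preadipocyte array or without PPAR gamma siRNA 1 (adjusted p up to 0.107). On that array, PPAR gamma siRNA 1, the macrophage marker mean was also the highest, 4.99 against 4.66 and 4.72 in its group, and the fibroblast marker mean the lowest, 10.39 against 10.94 and 11.00.

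Genes of the same pathways outside the 51 were taken from 4 lists, whose counts are to be read against the shares of all genes. Of all genes, 27.1% rose and 24.7% fell in differentiation, and 19.9% rose and 16.1% fell with knockdown. Of 15 measured genes of glutathione precursor supply, breakdown and export, 8 rose and 3 fell in differentiation (median 0.43), and 3 rose and 5 fell with knockdown (median 0.10). Oplah, which recovers glutamate from 5-oxoproline, rose by 2.61 ± 0.14 and changed by -1.2 ± 0.14 with knockdown. The peptidase gene Anpep fell in differentiation 9.18-fold. Abcc1, which exports glutathione conjugates, rose with knockdown by 1.10 ± 0.09 (adjusted p = 2.28e-06) and stood 1.95 ± 0.09 over preadipocytes.

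NADPH supply, on which glutathione and thioredoxin reductases depend, had 8 of 11 measured genes higher and 2 lower in differentiation (median 1.19) and 1 higher and 7 lower with knockdown (median -0.64). The pentose phosphate enzyme Taldo1 rose by 3.15 ± 0.10 and changed by -1.80 ± 0.10 with knockdown, and malic enzyme, Me1, rose by 2.6 ± 0.12 and changed by -1.47 ± 0.12. The mitochondrial transhydrogenase Nnt went the other way, by -1.56 ± 0.11 and 1.13 ± 0.11. Of 22 other peroxide, disulfide and methionine sulfoxide enzymes, 9 rose and 4 fell in differentiation (median 0.18), and 8 rose and 6 fell with knockdown (median 0.06). The share called in differentiation, 59.1%, was near the 51.8% of all genes. Catalase, Cat, rose by 1.98 ± 0.10 and changed by -1.37 ± 0.10, and the methionine sulfoxide reductase Msra rose by 4.13 ± 0.08 and changed by -2.53 ± 0.08 (adjusted p = 1.55e-09 for knockdown). Its counterpart Msrb3 changed by -2.54 ± 0.16 and 1.80 ± 0.16.

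Of 21 measured NRF2 regulators and other NRF2 targets, 10 rose and 5 fell in differentiation (median 0.21) and 4 rose and 8 fell with knockdown (median -0.15). The carbonyl reductases Cbr1 and Cbr3 rose by 2.61 ± 0.09 and 1.63 ± 0.10 and changed by -1.60 ± 0.09 and -1.27 ± 0.10 with knockdown. Ephx1, microsomal epoxide hydrolase, changed by -1.72 ± 0.08 and 1.67 ± 0.08, and Pir, pirin, by -1.35 ± 0.14 and 1.23 ± 0.14. Genes of this list moved in both directions in each comparison.

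**Figure D4:**
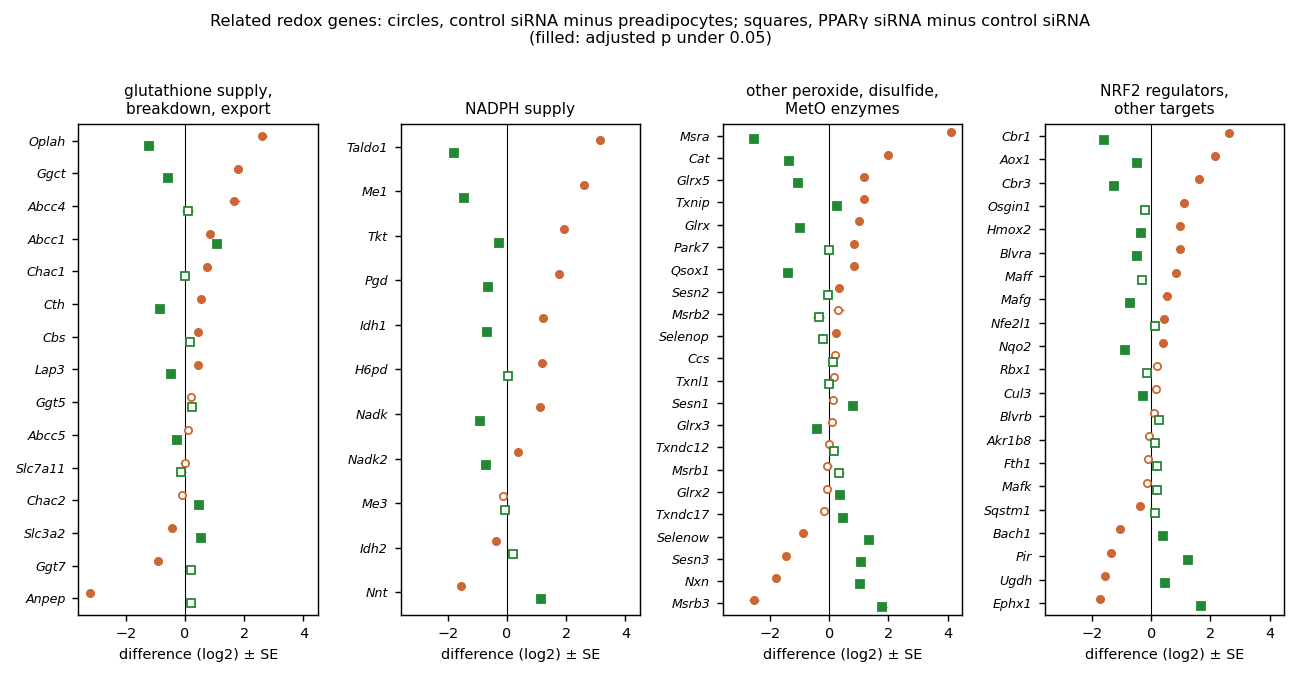
Log2 difference ± SE of related genes outside the 51 in 4 lists, sorted by their differentiation difference, with circles for differentiation and squares for knockdown, filled where the adjusted p was under 0.05. Oplah, Taldo1, Msra and Cbr1 lead their lists upwards in differentiation, and Anpep, Nnt, Msrb3 and Ephx1 are lowest.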

How the data were processed

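The deposited table holds log2 probe set values from the authors, whose array medians were nearly equal. The log2 scale was read from its range of 2.41 to 14.59. MAS5, RMA and affy 1.16.0 are named, without roles, per the submitters' processing notes. How background was corrected was not given in the sources used here, and no scaling was added. Left out were 64 control probe sets, and 45037 were tested with limma 3.58.1 in R 4.3.3 (lmFit, eBayes, 1 mean per group, 9 arrays, two-sided). Symbols came from the platform annotation: 34945 probe sets had 1 gene and 932 several. Array number limits the precision.

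The members, roles, lists and alternatives were chosen with earlier results of these data known. All 51 members are accounted for. Values of every array are given for the NRF2 and glutathione synthesis genes and, per role, for the 2 called genes of largest change in differentiation and in knockdown. Of each related list, genes named come from the 3 largest called rises and falls. Other genes named, and other probe sets, were added after values were seen. Alternatives were quantile normalisation, median centring, leaving out dim sets, a fit of the groups compared, intensity trend with robust variances, averaging of probe sets, omission of types x and s, a replicate block, a 2-fold minimum and omission of arrays.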

Additional observations from a re-analysis of the deposited data

How the results depend on the processing

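Over the settings that keep the call rule, arrays left out included, the count of antioxidant genes was 21 to 27 higher and 8 to 11 lower in differentiation, 7 to 9 higher and 16 to 24 lower with knockdown, and 19 to 26 higher and 8 or 9 lower for PPAR gamma siRNA over preadipocytes, each within 1.5 times the reported count. The lowest of these, 21, came from leaving out dim probe sets, which tests fewer of the genes, and without 1 array the count was 25 to 27. A 2-fold minimum left 15 and 5, 3 and 6, and 6 and 3 in that order, and over all genes 1607 and 1937, 1033 and 838, and 781 and 912. With all probe sets of a gene averaged, Nfe2l2 differed by 1.04 in differentiation (adjusted p = 1.29e-07) and 0.48 over preadipocytes (adjusted p = 0.000195), and Gclm by 0.043 with knockdown (adjusted p = 0.788), each opposite in sign to the reported value; averaging brings in the dimmer probe sets described above. Leaving the 2-fold minimum aside, 38, 35 and 37 of the 51 genes kept their call under every setting in the 3 comparisons. Same-numbered arrays of different groups had deviations correlated from -0.19 to 0.17, and other pairs from -0.22 to 0.29. No pairing by number was seen there, though 3 arrays per group cannot exclude it. A replicate block gave 26 and 8, 9 and 22, and 22 and 8 genes. Renewed normalisation or centring moved the median of all genes by at most -0.02. Low signal limits the 12 dim genes.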

Other observations

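Of the 51 genes, 26 had 1 probe set, and the others had 41 further probe sets. These gave the same call as the probe set used for 26 of 41 in differentiation, 31 of 41 with knockdown and 24 of 41 for PPAR gamma siRNA over preadipocytes, and opposite calls in 1 case, Gclm with knockdown. In the remaining cases only 1 of the probe sets compared passed the test, among them dim sets of Prdx4 and Gstm7 whose brighter sets changed. The macrophage marker Cd68 was higher with PPAR gamma siRNA, at 6.56 ± 0.59, than with control siRNA, at 5.36 ± 0.06, and preadipocytes, at 4.01 ± 0.11 (SD, n = 3), while Itgam and Mrc1 stayed near the array floor. Of the 6 macrophage markers, whose median knockdown difference was 0.065, only Cd68 passed the test with knockdown, where 35.9% of all genes did.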
